A study of Sus scrofa with 3 samples.

Results

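The genes described here are those of glutathione and redox defence, the enzymes that make and use glutathione or thioredoxin, break down peroxide and superoxide, or sense oxidants. Members were chosen by name alone: every row whose symbol begins as a glutathione S-transferase (GST, MGST), glutathione peroxidase (GPX), peroxiredoxin (PRDX), thioredoxin-related (TXN) or superoxide dismutase (SOD) gene, plus 11 single genes, among them CAT, KEAP1 and NFE2L2. The rule took 49 of 34570 rows. HMOX2 and SRXN1 have no row under those symbols. SRXN1, SOD3, GSTM3, GPX7, TXNDC11 and TXNDC12 were found under numbered identifiers through RefSeq symbols, and HMOX2 under its synonym HO2. These 7 rows are described separately and are not counted among the 49.

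The samples are kidneys of Wuzhishan pigs, a small Chinese breed, aged 6 to 7 months and all on a diet high in fat and cholesterol. The groups are intact males, written IM, castrated males, CM, and castrates that received testosterone replacement, CMT. RNA of 3 pigs per group was mixed in equal amounts before sequencing, so there are 3 libraries from 9 pigs and 1 library per group. The spread between pigs is therefore unknown, no difference has a replicate check, no p-value is given, and 1 unusual pig cannot be told apart from a change in all 3. The sources used here do not give the dose of testosterone or the age at castration.

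The libraries hold 16459771 (IM), 18503537 (CM) and 13601475 (CMT) counts. Levels below are scaled CPM, that is, CPM on the effective library size (the total corrected with edgeR's TMM factors). A scaled CPM compares pools for 1 gene; it is not corrected for gene length and does not rank genes. Each ratio is followed by its exact 95% interval, which covers counting error only. The rule for calling a difference was an interval that lay wholly beyond 2-fold, and a 1.5-fold version of the rule is given as an alternative. Kidney markers were present in each pool, with the 8 proximal tubule markers that have a row summing to 8418, 8740 and 8161 scaled CPM (IM, CM and CMT). In whole tissue, fewer cells of a type and less RNA per cell cannot be told apart.

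Glutathione is a tripeptide that reduces peroxides and is coupled by transferases to foreign and oxidised compounds; glutathione reductase restores it with NADPH. Thioredoxin and the peroxiredoxins form a parallel system. NRF2, encoded by NFE2L2, is the transcription factor that induces many of these genes, and KEAP1 is the adaptor that marks NRF2 for degradation until oxidants or electrophiles modify it. The proximal tubule of the kidney is rich in glutathione enzymes and is the main source of the peroxidase GPX3 in plasma.

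Most redox defence genes differed little between the pools, and GSTA1 was the only one to pass the 2-fold rule. Of the 49 genes, 41 had a mean of at least 1 scaled CPM and were compared. Between CM and IM, 0 of 41 were higher in CM, beside 1.2% of all 15472 compared genes, and 0 were lower, beside 1.52%. Between CMT and CM, 0 were higher in CMT (1.84% of all genes) and 0 lower (1.11%). Between CMT and IM, 1 was higher in CMT (0.905%) and 0 lower (0.595%). These counts lie near the background and do not set the genes apart. With the 1.5-fold rule, 2 were higher in CM than IM (2.81% of all genes) and 1 lower (3.42%). Of CMT against CM, 1 was higher (3.68%) and 1 lower (2.61%). Of CMT against IM, 2 were higher (2.3%) and 0 lower (1.44%).

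As a group the 41 genes were centred near 0. Their median log2 fold was -0.02 for CM against IM, 0.03 for CMT against CM, and -0.05 for CMT against IM, where all compared genes had medians of -0.01, -0.00427 and -0.01. A ratio within 1.5-fold either way was found for 36, 35 and 38 of the 41 genes in these comparisons (87.8%, 85.4% and 92.7%). Among all 15472 compared genes, 82.7%, 82.1% and 86.1% lay within 1.5-fold. Among those with a mean of at least 5 scaled CPM, the shares were 88.9%, 88.6% and 92.7%. The curves of all genes and of the redox genes run close together in the cumulative plot.

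**Figure D1:**
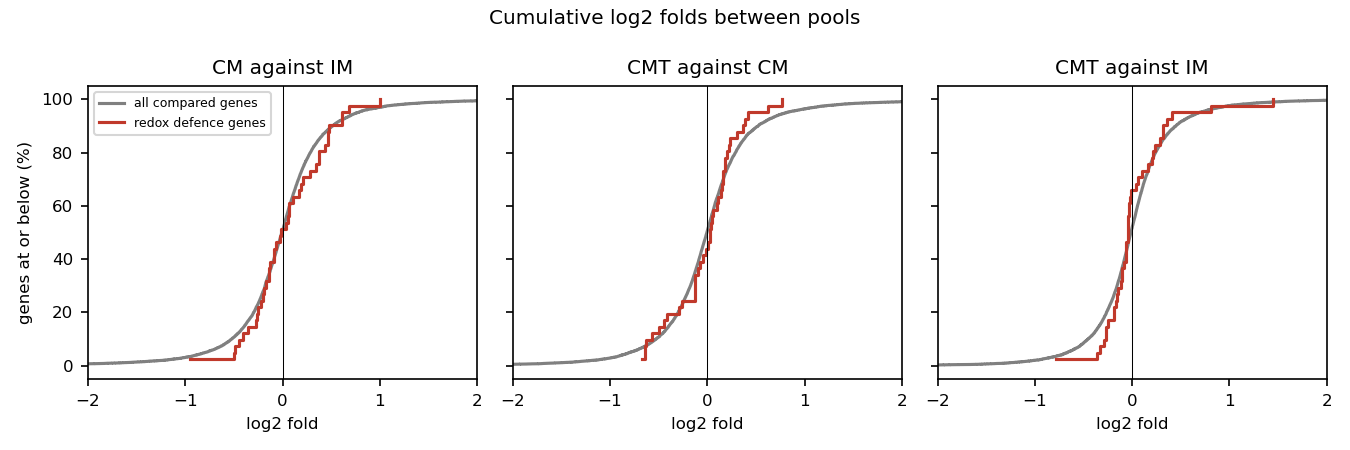
Cumulative share of genes (y axis, percent) at or below each log2 fold (x axis, cut at 2 either way) in each of the 3 comparisons. The red line stands for the 41 redox defence genes and the grey line for all 15472 compared genes; the medians lie within 0.05 of 0 in each panel.

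GSTA1, an alpha-class glutathione transferase that conjugates glutathione to electrophiles and binds steroids and bile pigments, gave a scaled CPM of 126 in IM, 202 in CM and 345 in CMT. The intact pool was lowest and the testosterone pool highest. The gene was called higher in CMT than in IM, at 2.74-fold (2.60 to 2.88). CM stood at 1.60 times IM (1.52 to 1.69) and CMT at 1.71 times CM (1.63 to 1.78), so that both steps passed the 1.5-fold rule and neither passed the 2-fold rule. The level in the castrated pool thus lay between those of the other pools, on a scale where its own interval (196 to 208 scaled CPM by Poisson counting error) touched neither. Markers of liver, where GSTA1 is also abundant, summed to 778, 359 and 671 scaled CPM over 10 genes, with the lowest value in CM; none of the 10 was at 0 in every pool. The list was mixed, with 2 markers called higher and 2 lower in CM against IM. TTR, at 8.03, 25.9 and 58.6 scaled CPM, and FGB, at 4.65, 6.56 and 6.95, had the order of GSTA1. Their part in the GSTA1 values was not tested.

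GSTA4, the alpha-class enzyme with a preference for 4-hydroxynonenal, a product of lipid peroxidation, had its highest level in the intact pool. It had a scaled CPM of 12.7 in IM, 6.56 in CM and 7.33 in CMT, so that both castrated pools were low. CM stood at 0.515 times IM (0.409 to 0.646), past the 1.5-fold rule only, and CMT at 0.575 times IM (0.447 to 0.735). CMT against CM was 1.12 (0.848 to 1.47), an interval that includes 1. Counts behind these values were 211, 124 and 97. A difference between the castrated pools was not detectable at this depth.

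In RefSeq's gene table for Sscrofa11.1, which may not be the build of the counts, 2 numbered protein-coding genes with a row lie between GSTA1 and GSTA4. LOC100526118, named here after its values were seen, had 230 counts in IM, 82 in CM and 373 in CMT. It was lower in CM than IM by 3.20-fold (2.48 to 4.17) and higher in CMT than CM by 6.50-fold (5.10 to 8.36); CMT against IM was 2.03 (1.72 to 2.40). Its castrated pool was the low one, whereas that of GSTA1 lay between the others. LOC100510917 had 17, 33 and 15 counts, and no call. Alpha-class transferase genes lie close together and resemble each other, and how the counting divided reads among similar genes is unknown.

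The other transferases formed a set with small ratios. GSTK1, the kappa-class enzyme of mitochondria and peroxisomes, had a scaled CPM of 58.2 in IM, 89.1 in CM and 59.99 in CMT. Castrated pigs without testosterone thus gave the single high pool, at 1.53 times IM (1.41 to 1.66), and CMT stood at 0.673 times CM (0.618 to 0.733). GSTO1, of the omega class, which reduces dehydroascorbate, was likewise highest in CM, with 53.4, 72.1 and 52.8 scaled CPM. GSTM3, a mu-class gene found under a numbered identifier, was so too, with 12.1, 17.8 and 13.3. None of the 3 was called under either rule. GSTP1, the pi-class enzyme, had 280, 315 and 372 scaled CPM, with no call; CMT stood at 1.33 times IM (1.27 to 1.38). GSTZ1, which also isomerises maleylacetoacetate in tyrosine breakdown, had 240, 251 and 229. The membrane enzymes MGST2 and MGST3 had ratios between 0.783 and 1.08 over the 3 comparisons. GSTO2 had 3, 1 and 4 counts and was not compared.

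**Figure D2:**
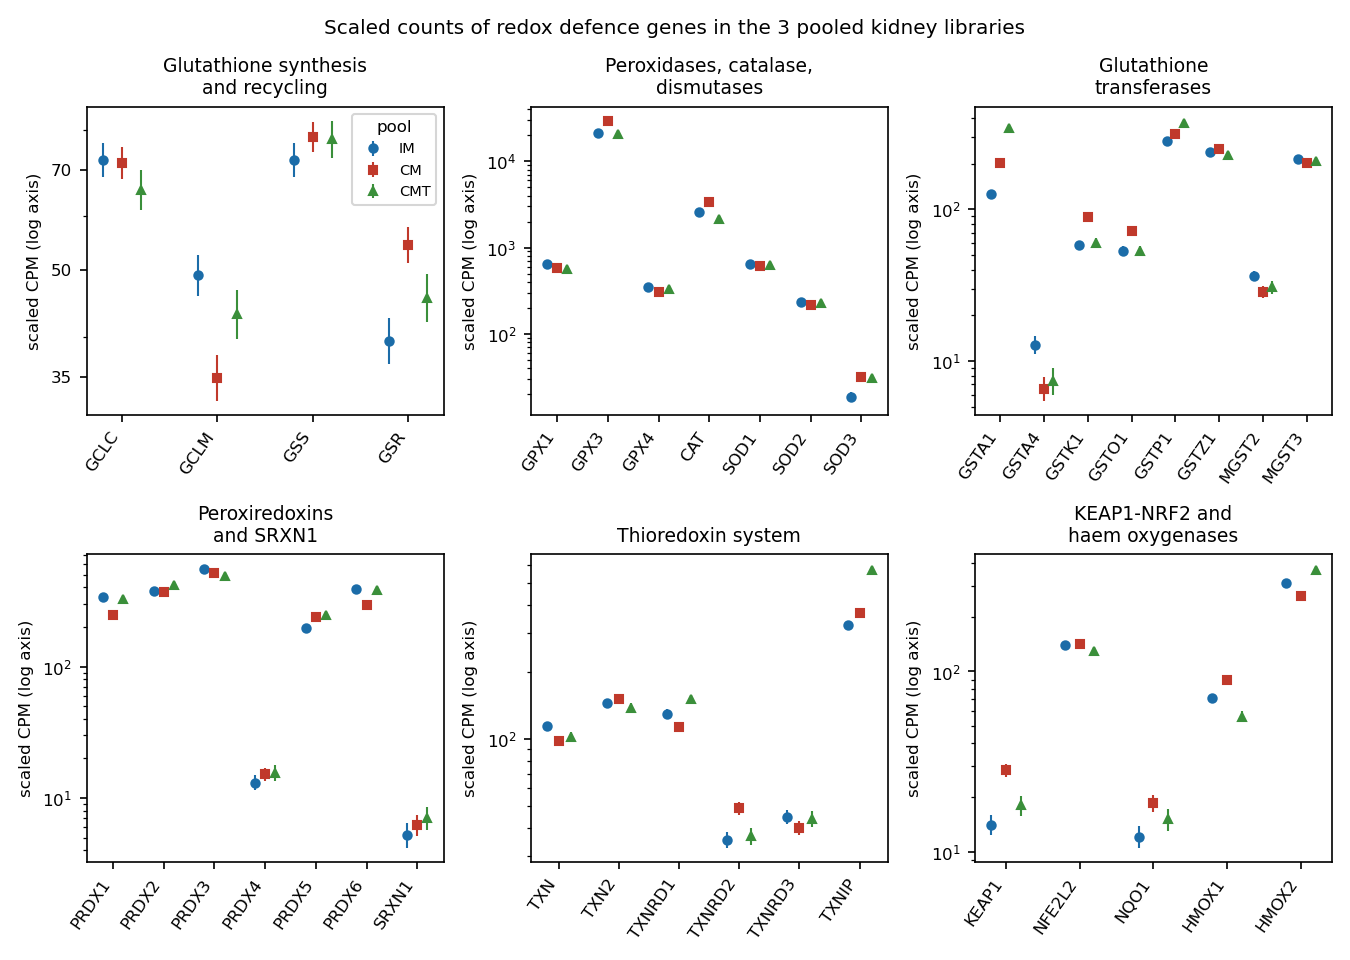
Scaled CPM (y axis, log scale) of redox defence genes grouped by role (x axis) in the pools IM (blue circles), CM (red squares) and CMT (green triangles); bars are exact 95% Poisson intervals and show counting error only. GSTA1 stands at 126, 202 and 345 in IM, CM and CMT, KEAP1 and GPX3 have their highest point in CM, and most other genes have 3 points close together.

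Glutathione peroxidases turn hydrogen peroxide and lipid peroxides into water and alcohols. GPX3, the secreted plasma form, had 348405 counts in IM, 549486 in CM and 271873 in CMT. It was the gene with the second highest count in each pool and took 2.12% of all counts in IM (2.11 to 2.12, Clopper-Pearson 95%), 2.97% in CM (2.96 to 2.98) and 1.999% in CMT (1.99 to 2.01). The castrated pool alone was high, at 1.38 times IM (1.38 to 1.39), and CMT stood at 0.707 times CM (0.703 to 0.710). CMT and IM were nearly level, with a ratio of 0.976 (0.971 to 0.981). GPX3 passed neither rule, and its narrow interval reflects its depth and not the spread between pigs. The 49 redox genes together took 3.04%, 3.97% and 2.89% of the counts in IM, CM and CMT; without it they took 0.924%, 1.0001% and 0.893%. The summed proximal tubule markers were 8418, 8740 and 8161 scaled CPM. SLC22A8, at 2830, 3247 and 2472, had the order of GPX3, while SLC5A12, at 1337, 919.9 and 1290, was lowest in CM. Their part in the GPX3 values was not tested.

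GPX1, the cytosolic enzyme, had a scaled CPM of 646 in IM, 585 in CM and 568 in CMT. GPX4, which reduces lipid peroxides within membranes and restrains ferroptosis, had 346, 303 and 335. Neither left a band of 0.876 to 1.11 as a ratio in any comparison, and neither shared the high value of GPX3 in CM. GPX2, GPX5, GPX6 and GPX8 had between 0 and 5 counts in each pool and were not compared. Where no read was counted, up to 3 counts remain possible, a level of 0.181 (IM), 0.159 (CM) or 0.227 (CMT) scaled CPM. GPX7, an endoplasmic reticulum form under a numbered identifier, had 79, 68 and 61 counts.

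Catalase (CAT), the peroxisomal enzyme that splits hydrogen peroxide, shared the order of GPX3. It had a scaled CPM of 2607 in IM, 3373 in CM and 2167 in CMT. The CM pool was again the highest and the CMT pool the lowest. CAT was lower in CMT than CM by the 1.5-fold rule, at 1.56-fold (1.54 to 1.58), and not by the 2-fold rule. CM stood at 1.29 times IM (1.28 to 1.31) and CMT at 0.831 times IM (0.819 to 0.844). CAT is also abundant in red blood cells, whose 7 markers with a row summed to 86.3, 108 and 134 scaled CPM (IM, CM and CMT). The members were mixed. HBB, which made up 55.6, 69.9 and 95.3 of this sum, HBM and SLC25A37 were highest in CMT. HBQ1, at 2.30, 3.33 and 2.19, had the order of CAT, and ALAS2, at 1.27, 2.27 and 2.19, was highest in CM. AHSP was at 0 in every pool. The part of red cells in the CAT values was not tested.

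Superoxide dismutases convert superoxide to hydrogen peroxide. The cytosolic SOD1 had a scaled CPM of 647 in IM, 619 in CM and 634 in CMT, and the mitochondrial SOD2 had 236, 214 and 230. Their ratios lay between 0.906 and 1.07 in each comparison, and SOD1 in CMT against CM turned below 1 when total counts replaced TMM (0.976). The secreted SOD3, found under a numbered identifier, differed more, with a scaled CPM of 18.8 in IM, 31.9 in CM and 30.7 in CMT. Both castrated pools were high: CM stood at 1.69 times IM (1.47 to 1.95) and CMT at 1.63 times IM (1.40 to 1.89). CMT against CM was 0.962 (0.846 to 1.09). SOD3 passed neither rule.

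KEAP1 gave the largest ratio of the 41 genes in CM against IM. It had a scaled CPM of 14.1 in IM, 28.3 in CM and 18.1 in CMT, from 233, 535 and 239 counts. The castrated pool was the high one, at 2.01 times IM (1.72 to 2.36). This interval passed the 1.5-fold rule and not the 2-fold rule. CMT stood at 0.638 times CM (0.545 to 0.745) and at 1.28 times IM (1.07 to 1.54). NFE2L2, whose protein KEAP1 holds down, did not share that order: it had 140, 143 and 130 scaled CPM, with a CM to IM ratio of 1.02 (0.966 to 1.08).

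Redox genes that NRF2 is known to induce did not share a direction in CM against IM. None of NQO1, GCLM, TXNRD1 and SRXN1 passed the 2-fold rule in that comparison. NQO1, a quinone reductase, had a scaled CPM of 12.1 in IM, 18.6 in CM and 15.1 in CMT, with CM at 1.54 times IM (1.29 to 1.84). GCLM, the modifier subunit of the rate-limiting enzyme of glutathione synthesis, had 49.2, 34.9 and 43.1, with CM at 0.708 times IM (0.638 to 0.786). NQO1 was thus highest and GCLM lowest in the same pool. TXNRD1, the cytosolic thioredoxin reductase, had 130, 113 and 151 scaled CPM, with CMT at 1.33 times CM (1.25 to 1.42). SRXN1, sulfiredoxin, which repairs overoxidised peroxiredoxins, had 5.19, 6.19 and 7.03 scaled CPM, from 86, 117 and 93 counts. Its intervals included 1 in each comparison, with CMT at 1.35 times IM (0.998 to 1.84).

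Haem oxygenases degrade haem to biliverdin, iron and carbon monoxide. The inducible HMOX1, also an NRF2 target and high in macrophages that take up red cells, had a scaled CPM of 70.8 in IM, 89.7 in CM and 56.2 in CMT. CM was high and CMT low, and CMT stood at 0.627 times CM (0.574 to 0.684), short of the 1.5-fold rule. The constitutive HMOX2 had the reverse order, with 308, 262 and 363 scaled CPM, and CMT at 1.39 times CM (1.33 to 1.44). Macrophage and granulocyte markers summed to 31.8, 48.6 and 57.2 scaled CPM over the 8 with a row. Of these, CSF1R made up 13.0, 25.5 and 26.1 and S100A12 0.423, 0.265 and 6.57. The macrophage receptor CD163 had 2.17, 1.96 and 2.19, and MRC1, highest in CM, had 9.36, 10.3 and 9.75. The members were thus mixed, and their part in the HMOX1 values was not tested.

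**Figure D3:**
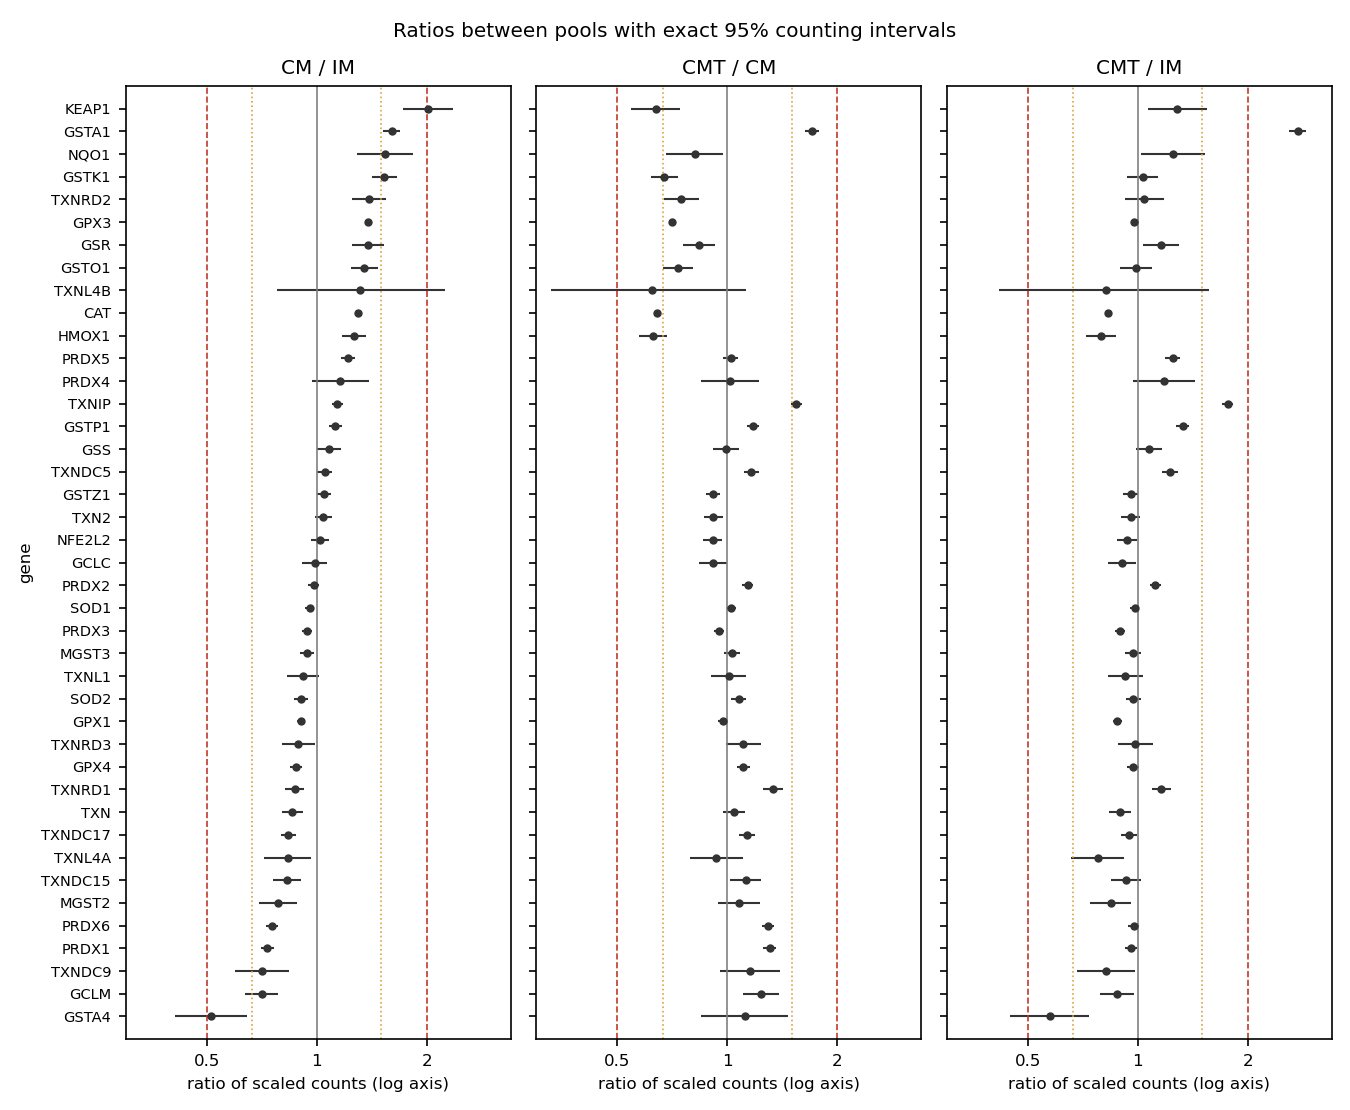
Ratio of scaled counts (x axis, log scale) for each of the 41 compared redox defence genes (y axis, sorted by CM over IM) in the 3 comparisons. Bars are exact 95% intervals of counting error, dashed lines mark 2-fold and dotted lines 1.5-fold. GSTA1 in CMT over IM, at 2.74, is the only bar wholly beyond a dashed line.

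Among the genes of glutathione synthesis and recycling, GCLM and GSR lay farthest from level in CM against IM, in opposite directions. GCLC, the catalytic subunit of the same ligase, had a scaled CPM of 72.5 in IM, 71.7 in CM and 65.5 in CMT. GSS, which adds glycine in the last step, had 72.4, 78.2 and 77.7. The 2 subunits of the ligase therefore differed: CM against IM was 0.988 (0.914 to 1.07) for GCLC and 0.708 for GCLM. GSR, glutathione reductase, had 39.4, 54.4 and 45.6 scaled CPM, highest in CM, at 1.38 times IM (1.25 to 1.52). None of these genes passed a rule.

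Peroxiredoxins reduce peroxides with electrons from thioredoxin. PRDX1, a cytosolic form, had a scaled CPM of 339 in IM, 248 in CM and 325 in CMT. PRDX6, which uses glutathione instead and also acts on phospholipids, had 391, 295 and 381. In both genes the castrated pool was the low one: CM stood at 0.733 (0.705 to 0.762) and 0.754 (0.728 to 0.782) times IM, and CMT at 1.31 (1.25 to 1.36) and 1.29 (1.24 to 1.34) times CM. CM was thus the lowest pool for PRDX1 and PRDX6 and the highest for GPX3 and CAT. PRDX2, abundant in red cells, had 376, 370 and 420. The mitochondrial PRDX3 had 548, 515 and 490. PRDX4 of the endoplasmic reticulum had 13.1, 15.2 and 15.5. PRDX5 had 196, 239 and 245, lowest in the intact pool, with CMT at 1.245 times IM (1.19 to 1.31). None of the 6 peroxiredoxins passed either rule.

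In the thioredoxin system the gene that differed most was the inhibitor. TXNIP, an arrestin-like protein that binds thioredoxin and limits glucose uptake, had a scaled CPM of 323 in IM, 368 in CM and 569 in CMT. The testosterone pool stood apart from both others. TXNIP was higher in CMT than IM by the 1.5-fold rule, at 1.76-fold (1.70 to 1.82), and CMT stood at 1.55 times CM (1.495 to 1.60), just short of it. Thioredoxin itself (TXN) had 114, 97.9 and 102, and the mitochondrial TXN2 had 144, 150 and 138. TXNRD2, the mitochondrial reductase, had 35.2, 48.9 and 36.6 scaled CPM, without a 2-fold call. TXNRD3 had 44.6, 39.7 and 44.0 scaled CPM, from 739, 751 and 582 counts.

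The name rule also took thioredoxin-fold proteins with other roles. TXNDC5, a disulfide isomerase of the endoplasmic reticulum, had 186, 195 and 227 scaled CPM, and TXNDC17, a cytosolic thioredoxin-like protein, had 223, 186 and 211. TXNDC9 had 18.7, 13.3 and 15.3. The spliceosome gene TXNL4A had 22.7, 18.9 and 17.7. Its relative TXNL4B, the least counted of those compared, had 26, 39 and 17 counts, and its intervals included 1 in each comparison. TXNL1, TXNDC15, TXNDC11 and TXNDC12 had ratios between 0.828 and 1.12. TXNDC2, TXNDC8 and TXNDC16 had between 0 and 5 counts in each pool.

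Members nearest the 2-fold rule were KEAP1 in CM against IM, with a lower bound of 1.72, and TXNIP in CMT against IM, with 1.70. In CMT against CM the nearest was GSTA1, with 1.63. In level, CM was the highest pool for 14 of the 41 genes (35.8% of all genes) and the lowest for 17 (35.8%). IM was the highest for 19 (33.2%) and CMT for 8 (31%).

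Around the redox genes, GGT1 and LAP3, which break down glutathione, were lower in CM than in the other pools. Of 13 compared genes of glutathione turnover, 2 were lower in CM than in IM (1.52% of all genes) and 0 higher (1.2%), and 2 were called higher (1.84%) and 0 lower (1.11%) in CMT against CM. GGT1, the brush border enzyme that starts the breakdown of extracellular glutathione, had a scaled CPM of 1140 in IM, 552 in CM and 1293 in CMT. LAP3, an aminopeptidase that can cleave cysteinylglycine, had 234, 109 and 232. The castrated pool was low for both. LAP3 was lower in CM than IM by 2.16-fold (2.05 to 2.28) and higher in CMT than CM by 2.14-fold (2.02 to 2.26), GGT1 by 2.06-fold (2.02 to 2.11) and 2.34-fold (2.28 to 2.40). CMT against IM was 0.991 (0.945 to 1.04) for LAP3 and 1.13 (1.11 to 1.16) for GGT1. The list had a median log2 fold of -0.21 in CM against IM and 0.31 in CMT against CM. DPEP1 and ANPEP, other peptidases of the brush border, had smaller ratios and no call. DPEP1 had 939, 781 and 823 scaled CPM and was also lowest in CM, at 0.832 times IM (0.814 to 0.851). ANPEP had 1511, 1723 and 1553 scaled CPM and was highest in CM.

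CDO1, cysteine dioxygenase, which diverts cysteine from glutathione towards taurine and sulfate, showed the largest ratio of the surrounding lists in CM against IM. It had 351 counts in IM, 57 in CM and 226 in CMT. It was lower in CM than IM by 7.03-fold (5.30 to 9.47) and higher in CMT than CM by 5.66-fold (4.22 to 7.71). It was the only called gene among 8 compared genes of cysteine supply, in both comparisons (1.52% of all genes lower in CM than IM, 1.84% higher in CMT than CM). Of 14 compared genes that supply NADPH, the electron donor of glutathione and thioredoxin reductases, 0 were called in any comparison.

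DPP3, a peptidase known to bind KEAP1 and so to spare NRF2, had 229 counts in IM, 49 in CM and 180 in CMT. It was lower in CM than IM by 5.34-fold (3.90 to 7.42) and higher in CMT than CM by 5.25-fold (3.81 to 7.35), and it lay level between CMT and IM at 0.983 (0.804 to 1.20). KEAP1 itself had its highest level in the pool where DPP3 was lowest, and a link between them was not tested. MAFF, a small MAF protein that pairs with NRF2 on DNA, had 216, 176 and 363 counts and was higher in CMT than CM by 2.95-fold (2.45 to 3.55). Of the 9 compared partners and regulators of NRF2, 1 was lower in CM than in IM (1.52% of all genes) and 2 were higher in CMT than in CM (1.84%).

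Among 22 compared further targets of NRF2, CBR3 alone was called, lower in CM than IM (1.52% of all genes) and higher in CMT than CM (1.84%). A count of 1 in a list of this length lies near the background. CBR3, a carbonyl reductase, had 365 counts in IM, 130 in CM and 537 in CMT. It was lower in CM than IM by 3.21-fold (2.62 to 3.95) and higher in CMT than CM by 5.90-fold (4.86 to 7.20). The iron store genes FTL and FTH1 had opposite orders: FTL had 16083, 18206 and 15770 scaled CPM and FTH1 11836, 8814 and 12573, with no call. Targets of NRF2 therefore included genes with their lowest and genes with their highest level in CM.

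Of 19 compared oxidase genes, 1 was lower in CM than in IM, beside 1.52% of all genes, and 1 was higher in CMT than in CM, beside 1.84%. QSOX1, a sulfhydryl oxidase that forms disulfides in secreted proteins, was the first. It had 1030, 472 and 722 counts, and was lower in CM by 2.49-fold (2.23 to 2.78). For QSOX1, CMT stood at 2.18 times CM (1.94 to 2.46), just short of the rule. HAO2, a peroxisomal hydroxyacid oxidase that makes hydrogen peroxide, was the second. It had a scaled CPM of 1604 in IM, 818 in CM and 1762 in CMT, and was higher in CMT than CM by 2.15-fold (2.11 to 2.20). CM against IM was 0.510 for HAO2, with an upper bound of 0.520, just short of the rule. NOX4, the NADPH oxidase of the kidney, had 4228, 3957 and 2337 counts and no call. None of the 17 compared glutaredoxins, sestrins, methionine sulfoxide reductases and related genes, nor of the 18 compared selenoprotein genes, was called in any comparison. SESN2, a sestrin induced by stress, had 89.1, 146 and 97.0 scaled CPM, with CM at 1.64 times IM (1.54 to 1.75). The selenoprotein gene SEPX1 was lowest in CM instead, with 240, 146 and 300 scaled CPM. Its CM level was 0.605 times IM (0.577 to 0.636). CMT stood at 2.06 times CM (1.96 to 2.16), just short of the 2-fold rule. No gene of any of these lists was called in CMT against IM.

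**Figure D4:**
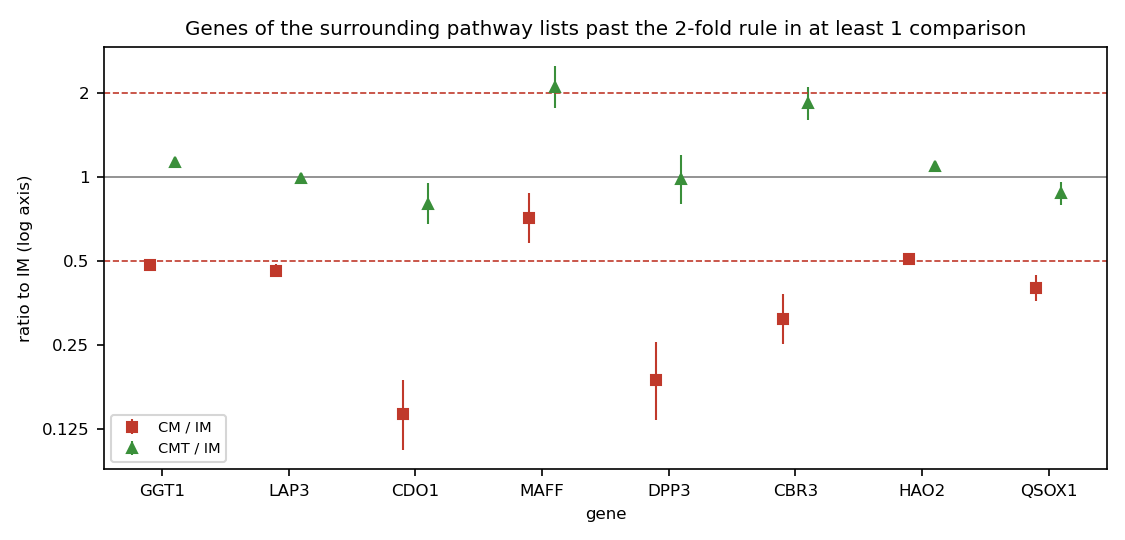
Ratio to the intact pool (y axis, log scale) of CM (red squares) and CMT (green triangles) for the 8 genes of the surrounding lists (x axis) that passed the 2-fold rule in at least 1 comparison; bars are exact 95% intervals of counting error and dashed lines mark 2-fold. The CM points lie below 1 for each gene, from 0.142 for CDO1 to 0.714 for MAFF, and the CMT points lie between 0.805 and 2.10. The genes were picked by these calls, so their shared direction does not describe the full lists, whose members went both ways.

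Markers of other cells also differed between the pools. Lymphocyte markers gave a summed scaled CPM of 33.3 in IM, 129 in CM and 40.5 in CMT over 8 genes, of which IGJ, the antibody joining chain, made up 16.1, 102 and 21.8. CM was thus the high pool for this sum, as it was for GPX3, CAT, KEAP1, GSTK1 and HMOX1. The sum of the 6 collecting duct markers was also highest in CM, at 967, 1238 and 922 scaled CPM, with ATP6V1B1 at 433, 727 and 413. The other members, AQP2, AQP3, FXYD4, SLC4A1 and SCNN1G, were not highest in CM. The median log2 fold of this list was -0.003 in CM against IM. The 5 adipocyte markers summed to 25.4, 41.9 and 19.2, of which PLIN4 made up 10.9, 34.6 and 8.92, while ADIPOQ and LEP were at 0 in every pool. CIDEC, at 13.5, 6.61 and 8.54, and PLIN1, at 1.03, 0.688 and 1.74, were lowest in CM. Among the lymphocyte markers, CD3E, a T cell gene, had 5.38, 4.76 and 5.52 scaled CPM and was lowest in CM. The liver sum was lowest in CM, as were GGT1, LAP3, CDO1, DPP3 and CBR3, but its members did not share 1 order. Within that list TF made up 626, 285 and 547 scaled CPM and ALB 118, 1.27 and 30.5, while APOA1 was highest in CM with 39.1 against 15.8 in IM, and TTR and FGB were lowest in IM. The part of these cells in the redox results was not tested.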

How the data were processed

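Values are the deposited raw counts, whole numbers, in 1 column per group; per the labels' protocols, RNA of 3 pigs was pooled before each library was made. The submitters' processing notes name FastQC alone. Aligner, counting program, strand setting, genome build and annotation are not given in the sources used here. Coordinates are therefore left out, and reads of similar or overlapping genes may be shared. Some results are not reported here. The design text names another sequencing platform than the library kit in the labels, and this was not settled. An unnamed column with 4 values was not used. TMM factors from edgeR 4.0.16 in R 4.3.3 were 1.01, 1.02 and 0.973 in IM, CM and CMT. Genes with a mean of at least 1 scaled CPM were compared. The interval of a ratio comes from the exact 95% Clopper-Pearson limits of 1 library's share of the gene's counts (scipy 1.17.1); log2 folds used a prior count of 2. Intervals and floors cover counting error only, since reads are not independent molecules. With 1 library per group no test was possible. The code was tested on simulated counts. Alternatives were other scalings (total counts, DESeq2 1.42.0 size factors, upper quartile), filters, fold rules, interval levels, thinning, prior count and gene lists.

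Named were every called gene, 28 fixed genes, the 3 most counted of each family, and the 5 largest and 5 smallest ratios in each comparison; from the surrounding lists, called genes. Other genes and rows were named after their values were seen. Genes and lists were chosen with earlier results of these data known.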

Additional observations from a re-analysis of the deposited data

How the results depend on the processing

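With 1 library per group no library could be left out, and no paired analysis was possible because each group holds a single pool with no replicate number. GSTA1 stayed the only gene called by a 2-fold rule, in CMT against IM alone, under each other scaling, filter, interval level, thinning and gene list that was tried. The fold that the interval must pass decided the counts. With 1.5-fold, 2 genes were higher (GSTA1 and KEAP1) and 1 lower (GSTA4) in CM against IM, 1 was higher (GSTA1) and 1 lower (CAT) in CMT against CM, and 2 were higher (GSTA1 and TXNIP) and 0 lower in CMT against IM. With 3-fold, 0 were called in each comparison. The median log2 fold of the redox genes ranged over 12 alternatives from -0.02 to 0.05 in CM against IM, from -0.04 to 0.04 in CMT against CM and from -0.09 to -0.03 in CMT against IM, so its sign is not fixed in the first 2. The ratio of named genes crossed 1 between scalings for GCLC in CM against IM, for PRDX4, PRDX5, SOD1 and TXN in CMT against CM, and for GSTK1 in CMT against IM. Depth limits genes with few counts, such as TXNL4B, GPX7 and SRXN1, and the missing spread between pigs limits all values.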

Other observations

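GSTO1 and a numbered noncoding gene beside it in the Sscrofa11.1 gene table differed in their level in CMT relative to the other pools. LOC100623931, chosen after its values were seen, had 694 counts in IM, 1136 in CM and 219 in CMT. GSTO1 had 884, 1362 and 699. Both had their highest level in CM, and the numbered gene was lower in CMT than CM by 3.63-fold (3.14 to 4.22), where GSTO1 was not called. CMT against IM was 0.395 (0.338 to 0.460) for the numbered gene, past the 2-fold rule, and 0.989 (0.894 to 1.09) for GSTO1.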
